A study of Homo sapiens with 4 samples.

Results

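The epidermal growth factor (EGF) receptor family was followed through 10 genes, selected by symbol after the Ensembl identifiers of the count table were matched to gene symbols. They are 3 receptors (EGFR, ERBB2 and ERBB3), 6 ligands (AREG, EREG, HBEGF, TGFA, BTC and NRG1) and the receptor inhibitor ERRFI1, out of 58233 counted genes. The cells were the established lines MIA PaCa-2 and PANC-1, both derived from human pancreatic tumours and labelled wild type, and each was treated for 24 h with PBS or with cannabichromene (CBC), a non-psychotropic cannabinoid of hemp. CBC was given at 35 μM to MIA PaCa-2 and at 30 μM to PANC-1, so where CBC libraries enter, a difference between the lines and a difference in dose cannot be told apart. The stock of CBC was made in acetonitrile. The control is PBS by the labels but a vehicle by the methods, so whether the controls received the solvent is not known here. Each of the 4 conditions had 1 library of polyA RNA.

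In this family a ligand binds the outer part of a receptor, receptors pair, and their kinase domains phosphorylate each other and switch on RAS-MAPK and PI3K-AKT signalling. Most ligands are made as membrane-anchored precursors that proteases such as ADAM17 cut free. AREG, EREG, HBEGF, TGFA and BTC bind EGFR, HBEGF, EREG and BTC can also engage ERBB4, and NRG1 binds ERBB3 and ERBB4. ERBB2 has no known ligand and serves as a pairing partner, and ERBB3 has little kinase activity of its own. ERRFI1 (also called MIG6) binds the kinase domain of EGFR and ERBB2 and blocks it, and its gene is induced by MAPK signalling.

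The libraries held 21742775 to 27903667 counts on genes. Levels are CPM, that is counts per 1000000 counts of a library size scaled by the trimmed mean of M-values (TMM), and a count of 0 allows up to 3 counts, or 0.110 to 0.135 CPM. The epithelial keratins KRT8, KRT18, KRT19 and KRT7 summed to 1192 to 3476 CPM per library and the mesenchymal gene VIM stood at 3249 to 4356 CPM. KRT7 had 2 counts in the MIA PaCa-2 control and 49 to 58 in the other libraries. PTPRC, CD3E, PECAM1, CPA1, CELA3A, DCN and LUM, which mark other cell types, had no count in any library. The leukocyte gene CD68 had 1 and 9 counts in MIA PaCa-2 (PBS and CBC) and 12 and 22 in PANC-1, under 1 CPM in each library. The acinar gene PRSS1 had 1 count in the PANC-1 control only. The endothelial gene CDH5 had 49 counts in the MIA PaCa-2 control and at most 7 elsewhere, and the collagen gene COL1A1 had 3037 and 1268 counts in PANC-1. Bulk RNA does not separate less RNA per cell from a change in which cells were left to collect. With a single library for each condition, differences inside a line could not be checked against replicates, and the 95% intervals (exact Clopper-Pearson, from the 2 counts) cover counting error only.

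RefSeq start sites were used for 8 of the 10 genes, since ERBB3 had no entry and NRG1 was left out of the search. In the 250 bases before each start, 6 short motifs were searched on both strands. The windows of 4 members are shown 5′ to 3′ on the strand of the gene (GRCh38.p14), because AREG and EREG carried the largest ligand messages of MIA PaCa-2 and HBEGF and ERRFI1 were the members called higher after CBC over both lines. Capitals mark a motif. The windows lie at chr4:74444886-74445135 (AREG, plus strand), chr4:74364895-74365144 (EREG, plus strand), chr5:140346604-140346853 (HBEGF, minus strand) and chr1:8026310-8026559 (ERRFI1, minus strand).
AREG: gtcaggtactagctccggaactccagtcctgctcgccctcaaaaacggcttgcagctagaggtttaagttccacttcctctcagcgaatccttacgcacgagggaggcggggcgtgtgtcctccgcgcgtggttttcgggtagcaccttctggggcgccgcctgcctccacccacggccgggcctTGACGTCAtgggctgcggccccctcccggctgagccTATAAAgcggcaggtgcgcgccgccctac
EREG: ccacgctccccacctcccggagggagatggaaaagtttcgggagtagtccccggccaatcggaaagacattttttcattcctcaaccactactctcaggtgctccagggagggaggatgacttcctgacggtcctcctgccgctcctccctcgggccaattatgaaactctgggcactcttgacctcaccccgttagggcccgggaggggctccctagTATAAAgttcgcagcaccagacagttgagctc
HBEGF: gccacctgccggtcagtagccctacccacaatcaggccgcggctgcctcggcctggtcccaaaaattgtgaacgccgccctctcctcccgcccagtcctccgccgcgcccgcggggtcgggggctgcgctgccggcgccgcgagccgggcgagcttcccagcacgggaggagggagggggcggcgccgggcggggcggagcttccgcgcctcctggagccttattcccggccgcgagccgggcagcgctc
ERRFI1: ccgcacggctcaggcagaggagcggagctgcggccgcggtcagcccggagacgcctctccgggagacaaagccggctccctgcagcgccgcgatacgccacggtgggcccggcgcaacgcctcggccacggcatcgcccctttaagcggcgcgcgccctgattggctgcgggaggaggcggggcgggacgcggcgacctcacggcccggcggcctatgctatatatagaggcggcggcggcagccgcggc

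The AREG window held a cyclic AMP response element (TGACGTCA) from 65 to 58 bases before the start, a motif present in 1.65% of 35116 windows of the same length. TATAAA, the core of the TATA box, began 29 bases before the AREG start and 32 bases before the EREG start, and 10.7% of all windows held it. HBEGF and ERRFI1 held none of the 6 motifs in these letters. The pattern TGANTCA, searched for AP-1 with any base at its centre, was in 6.57% of all windows. It matched 2 times before the downstream start of EGFR, as TGAGTCA and TGACTCA, and TATAAA also occurred 2 times there. Before ERBB2 it matched 1 time as TGATTCA, which lacks the central C or G of an AP-1 site. The 6.57% includes such matches. The EGR motif GCGGGGGC (8.01%) was found 1 time before the upstream start of EGFR. The amino acid response element TGATGNAA (3.14%) and the antioxidant response element TGACNNNGC (10.9%) were in none of the windows of the 8 members searched.

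The receptors differed between the PBS-treated lines in opposite ways. EGFR (ENSG00000146648, chromosome 7 of GRCh38, 55019017 to 55211628) stood at 263 CPM in the MIA PaCa-2 control and 168 CPM in CBC-treated MIA PaCa-2, and at 608 and 634 CPM in the matching PANC-1 libraries. Both PANC-1 libraries lay above both MIA PaCa-2 libraries. ERBB2 (ENSG00000141736, chromosome 17, 39687914 to 39730426) ran the other way, with 131 CPM (control) and 106 CPM (CBC) in MIA PaCa-2 against 47.8 CPM and 34.4 CPM in PANC-1. Its exons share 571 bases with MIEN1 and 144 bases with PGAP3 on the opposite strand, and whether reads were counted by strand is not given, which leaves its level uncertain. ERBB3 (ENSG00000065361, chromosome 12, 56076799 to 56103505) was scarce, with 4.23 CPM (control) and 1.33 CPM (CBC) in MIA PaCa-2 against 2.73 CPM and 1.61 CPM in PANC-1. Per kilobase of exon the EGFR level was 1.30 and 1.03 times that of ERBB2 in the MIA PaCa-2 control and CBC libraries and 8.24 and 11.9 times in those of PANC-1, and ERBB3 was lowest in each library.

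The ligand messages also differed by line. AREG (ENSG00000109321, amphiregulin, chromosome 4, 74445136 to 74455005) had 60.3 CPM in the MIA PaCa-2 control and 0.880 CPM in the PANC-1 control. EREG (ENSG00000124882, epiregulin, chromosome 4, 74365145 to 74388749) had 207 and 12.0 CPM, and BTC (ENSG00000174808, betacellulin, chromosome 4, 74744759 to 74794523) had 9.31 and 0.0440 CPM, the latter being 1 count. These 3 genes were lower in PANC-1, AREG by 62.8-fold and EREG by 17.2-fold, and BTC with a scaled count ratio of 0.00472 (0.000119 to 0.0266). HBEGF (ENSG00000113070, heparin-binding EGF-like growth factor, chromosome 5, 140332843 to 140346603) and NRG1 (ENSG00000157168, neuregulin 1, chromosome 8, 31639222 to 32855666) were higher there. HBEGF had 4.63 CPM in the MIA PaCa-2 control and 23.4 CPM in the PANC-1 control. NRG1 had 0 counts in both MIA PaCa-2 libraries and 1020 counts, or 44.9 CPM, in the PANC-1 control, which was at least 333-fold higher when MIA PaCa-2 is set at the limit of 3 counts. TGFA (ENSG00000163235, transforming growth factor alpha, chromosome 2, 70447284 to 70554193) stayed under 1 CPM in every library, with 0, 15, 6 and 9 counts in the MIA PaCa-2 control, CBC-treated MIA PaCa-2, the PANC-1 control and CBC-treated PANC-1. ERRFI1 (ENSG00000116285, chromosome 1, 8004404 to 8026309) had 657 CPM in the MIA PaCa-2 control and 629 CPM in the PANC-1 control, a log2 ratio of -0.06 (-0.10 to -0.03).

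**Figure D1:**
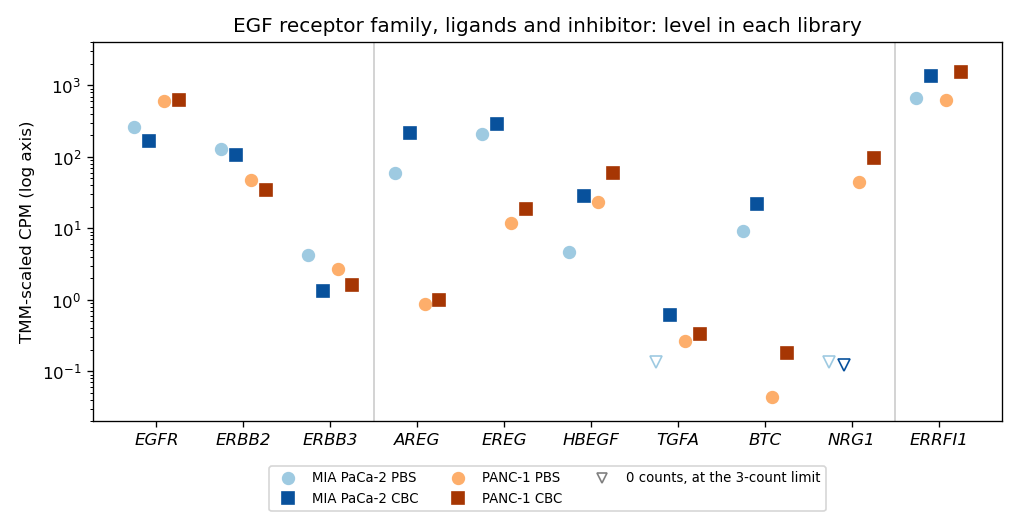
Level of each member in TMM-scaled CPM on a log axis, with a marker per library (circles PBS, squares CBC, blue MIA PaCa-2, orange PANC-1) and open triangles at the limit of 3 counts for a count of 0. The order of the lines turns between genes, with EGFR, HBEGF and NRG1 higher in PANC-1 and ERBB2, AREG, EREG and BTC higher in MIA PaCa-2 and the ERRFI1 controls at 657 and 629 CPM.

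Of 9 members that reached 1 CPM in at least 1 control, 3 were more than 2-fold higher in the PANC-1 control (EGFR, HBEGF and NRG1) and 4 more than 2-fold lower (ERBB2, AREG, EREG and BTC). Over all 14805 genes tested the shares were 24.0% and 18.0%. The cell line term was also tested over both treatments with edgeR's quasi-likelihood test, with treatment as a block and 9 members among 16381 tested genes. The same 7 members were called at a Benjamini-Hochberg adjusted p under 0.05, 3 higher in PANC-1 and 4 lower, where 25.1% and 21.7% of all tested genes were called. EGFR was higher in PANC-1 by 1.51 on the log2 scale (standard error 0.22, adjusted p = 0.00115 from edgeR), and HBEGF by 1.61 (0.36, adjusted p = 0.00807). HBEGF differed by 2.32 between the controls and by 1.05 between the CBC libraries. ERBB2 was lower by a log2 fold change of -1.60 (0.21, adjusted p = 0.000829 from edgeR), EREG by -4.09 (0.22, adjusted p = 1.42e-05) and AREG by -7.07 (0.45, adjusted p = 2.22e-05). AREG stood at -5.97 between the controls and -7.66 between the CBC libraries, on 20 and 27 PANC-1 counts. ERBB3 (adjusted p = 0.694) and ERRFI1 (adjusted p = 0.999) were not called by edgeR's test. The 2 libraries of a line are different treatments, not repeat cultures.

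Summed per kilobase of exon, the 6 ligand messages came to 78.0 CPM per kb in the MIA PaCa-2 control and 12.6 CPM per kb in the PANC-1 control. AREG and EREG made up 47.1% and 46.5% of the sum in the MIA PaCa-2 control. In the PANC-1 control HBEGF made up 62.0%, EREG 16.6% and NRG1 16.6%. The sum leaves out ligands of the family that are not members. Among these, NRG2 had 20.8 CPM in the PANC-1 control and EPGN 10.9 CPM in CBC-treated MIA PaCa-2. The length used is the union of all annotated exons, which is 21372 bases for NRG1 with its many isoforms and 1642 bases for AREG, and the isoform expressed is not known from these counts. After CBC treatment the sum was 201 CPM per kb in MIA PaCa-2, 2.57 times its control, and 28.2 CPM per kb in PANC-1, 2.23 times its control. AREG then made up 65.8% of the sum in MIA PaCa-2 and HBEGF 69.7% in PANC-1.

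**Figure D2:**
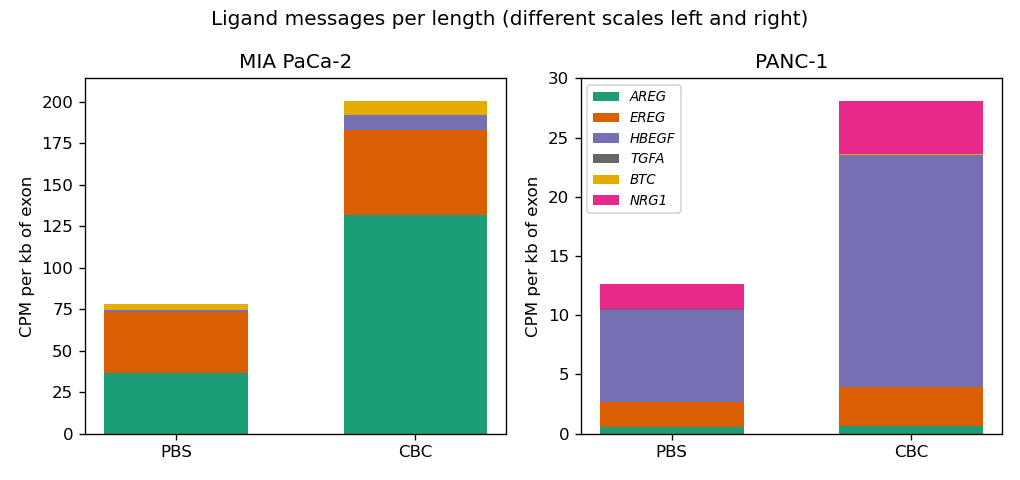
Messages of the member ligands, without NRG2 and EPGN, in CPM per kb of exon, stacked by gene for PBS and CBC in each line. The lines have separate vertical scales. The bar rises from 78.0 to 201 CPM per kb in MIA PaCa-2, mostly AREG and EREG, and from 12.6 to 28.2 CPM per kb in PANC-1, mostly HBEGF.

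HBEGF and ERRFI1 rose after CBC treatment in both lines. In MIA PaCa-2, HBEGF had 103 counts with PBS and 699 with CBC (4.63 to 28.3 CPM), which is 2.59 on the log2 scale (95% counting interval 2.31 to 2.92). In PANC-1 it went from 533 to 1604 counts (23.4 to 58.7 CPM), which is 1.32 (1.18 to 1.47). The CBC-treated MIA PaCa-2 thus reached a level just above that of the PANC-1 control. For ERRFI1 the MIA PaCa-2 libraries held 657 CPM (PBS) and 1370 CPM (CBC), a log2 fold change of 1.06 (1.03 to 1.09). The PANC-1 libraries held 629 CPM and 1554 CPM, a log2 fold change of 1.30 (1.28 to 1.33). It was the most abundant member in all 4 libraries, also per kilobase of exon. In edgeR's quasi-likelihood test of CBC against PBS over both lines, with the line as a block, HBEGF had a log2 fold change of 1.94 (standard error 0.36, adjusted p = 0.0289) and ERRFI1 of 1.19 (0.17, adjusted p = 0.0144). They were the 2 members called higher of 9 tested, beside 2.26% of all 16381 genes, and 0 members were called lower, beside 2.45%. At an unadjusted p under 0.05, 7 members passed edgeR's test, beside 20.9% of all genes, and DESeq2 called 2, beside 9.97% of the 13740 genes to which it gave an adjusted p. The test had 1 residual degree of freedom. With no replicate block, that is without the cell line as a term, edgeR called 0 of all 16381 genes and so 0 members. At an unadjusted p under 0.05, 1 member then passed, beside 2.16% of all genes.

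The chromosome 4 ligands were higher after CBC in MIA PaCa-2. AREG had 1341 counts there with PBS and 5368 with CBC, a log2 fold change of 1.85 (1.76 to 1.93), and 20 and 27 counts in PANC-1, where the interval from -0.72 to 1.08 included 0. BTC had 207 and 551 counts in MIA PaCa-2, 1.25 (1.03 to 1.5). It went from 1 to 5 counts in PANC-1, a scaled count ratio of 4.16 with an interval from 0.466 to 197. EREG stayed below the 2-fold threshold in both lines, with log2 fold changes of 0.49 (0.43 to 0.54) from 207 to 290 CPM and 0.65 (0.44 to 0.87) from 12.0 to 18.8 CPM. Over both lines none of the 3 passed edgeR's test, with adjusted p = 0.105 for AREG, 0.142 for BTC and 0.156 for EREG. AREG was called without a filter on low counts, at an adjusted p of 0.000525 from edgeR, where 2063 of 28834 genes were called.

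NRG1 went from 1020 to 2627 counts in PANC-1, a log2 fold change of 1.10 (0.99 to 1.21), and remained at 0 counts in MIA PaCa-2. Its value over both lines therefore rests on PANC-1 alone (edgeR adjusted p = 0.149). TGFA had 0 counts in the MIA PaCa-2 control and 15 after CBC, at least 4.50-fold higher against the limit of 3 counts, and 6 and 9 counts in PANC-1.

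The receptors showed no increase past 2-fold. EGFR counts were 5839 (PBS) and 4152 (CBC) in MIA PaCa-2, a log2 fold change of -0.65 (-0.70 to -0.59). They were 13830 and 17328, the latter in a deeper library, in PANC-1, a log2 fold change of 0.06 (0.03 to 0.09). The PANC-1 value was close to 0. It ran from 0.03 to 0.13 under the alternatives run, beside a median of 0.02 over all genes, so its sign depends on the scaling more than on counting. With 1 library per condition the difference between the lines was not tested. ERBB2 was lower in both CBC libraries, by -0.31 (-0.39 to -0.23) and -0.47 (-0.60 to -0.35). ERBB3 had 94 and 33 counts in MIA PaCa-2, a log2 fold change of -1.61 (-2.28 to -1.08), and 62 and 44 in PANC-1, -0.73 (-1.35 to -0.18). Over both lines the adjusted p from edgeR was 0.493 for EGFR, 0.344 for ERBB2 and 0.223 for ERBB3.

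Within MIA PaCa-2, 8 members were tested, of which 4 were more than 2-fold higher (AREG, HBEGF, BTC and ERRFI1) and 1 more than 2-fold lower (ERBB3). The shares over all 14001 genes were 11.5% higher and 8.97% lower. Within PANC-1, 7 members were tested, with 3 higher (HBEGF, NRG1 and ERRFI1) and 0 lower, beside 7.71% and 7.03% of all 14091 genes. The controls enter both these comparisons and that between the lines, so the comparisons are not independent.

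**Figure D3:**
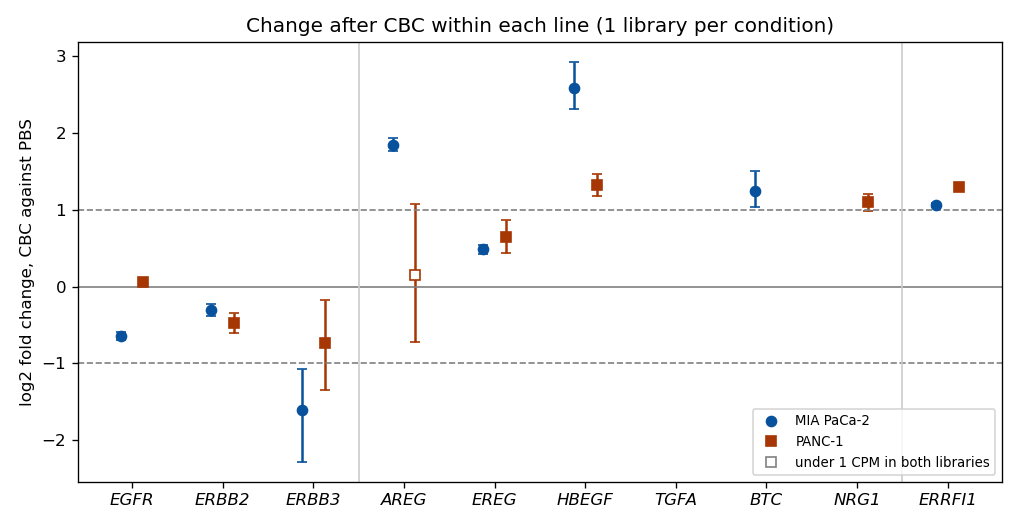
Log2 fold change of CBC against PBS for members with at least 10 counts in both libraries, with 95% counting intervals (circles MIA PaCa-2, squares PANC-1, open square under 1 CPM in both libraries) and dashed lines at a 2-fold change. HBEGF and ERRFI1 lie above the upper line in both cell lines, EGFR, ERBB2 and ERBB3 lie at or below 0.06.

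EREG, AREG and BTC lie within 429 kb of each other on chromosome 4, and EPGN, the gene of the EGFR ligand epigen, lies next to EREG on the other side. The neighbourhood was examined after the values were seen. EPGN had 60 and 269 counts in MIA PaCa-2 and 0 and 1 counts in PANC-1, and over both treatments it was called lower in PANC-1 by edgeR. Of 12 protein-coding genes within 500 kb on either side of the 3 members, 10 reached 1 CPM in a control, and 9 of these were more than 2-fold lower in the PANC-1 control, beside 18.0% of all genes tested. Besides EPGN, EREG, AREG and BTC these were the chemokine genes CXCL1, CXCL2, CXCL3 and CXCL5 and MTHFD2L, a mitochondrial folate enzyme. The 3 members set the window and are counted among the 9, so the share is raised by that choice. PARM1, beyond BTC, was not lower in the PANC-1 control, with 9.62 CPM in MIA PaCa-2 and 16.3 CPM in PANC-1. After CBC, 6 of 10 tested genes of the window were more than 2-fold higher in MIA PaCa-2, beside 11.5% of all genes. AREG and BTC, which helped set the window, are among these 6. Of 5 tested in PANC-1, 1 was higher (CXCL2) and 1 lower (PARM1), beside 7.71% and 7.03%. CXCL2 and CXCL3 had the largest changes in MIA PaCa-2, with log2 fold changes of 3.24 (3.02 to 3.50) and 3.41 (3.0 to 3.98).

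**Figure D4:**
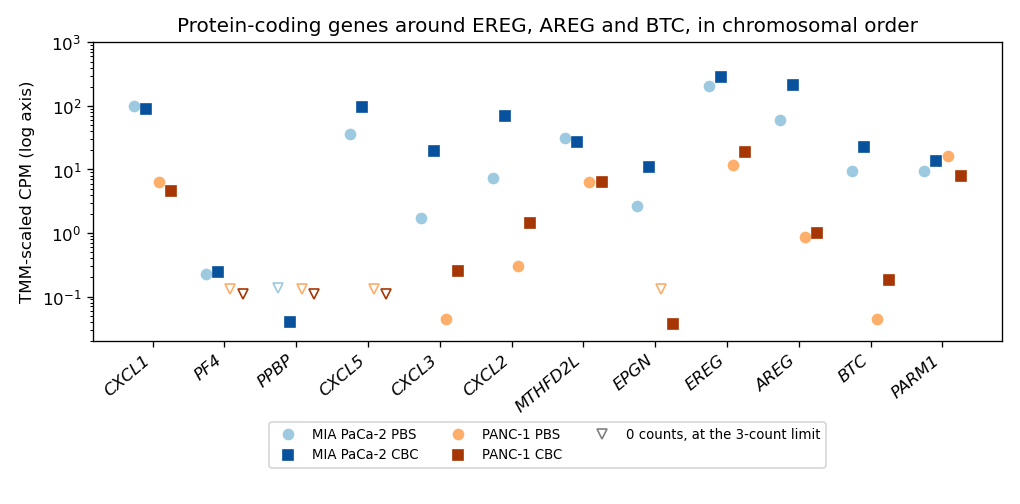
Levels in TMM-scaled CPM on a log axis of the 12 protein-coding genes around EREG, AREG and BTC, in their order along the chromosome, with a marker per library and open triangles at the limit of 3 counts. In 9 genes the MIA PaCa-2 control lies more than 2-fold above the PANC-1 control, and PARM1 at the right end does not follow.

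The other genes of the pathway were taken in 6 lists. Of the remaining receptor and ligands, ERBB4, EGF and NRG3 had at most 2 counts in any library, NRG4 had 4 and 20 counts in PANC-1, and NRG2 had 20.8 and 19.8 CPM in PANC-1 but 3 and 17 counts in MIA PaCa-2. Among 13 tested genes of ligand shedding, ADAM17, the main sheddase of AREG, HBEGF and TGFA, rose from 76.9 to 165 CPM in MIA PaCa-2 and from 88.2 to 199 CPM in PANC-1 (log2 fold change 1.14 with a standard error of 0.20 across the lines, edgeR adjusted p = 0.0240), and no other gene of this list was called. Over all 16381 genes tested across the lines, 2.26% were called higher and 2.45% lower. ADAM9 had log2 fold changes of -1.26 (-1.33 to -1.20) and -0.19 (-0.24 to -0.15), and ADAM19 of -0.65 (-1.45 to 0.06) and -1.15 (-1.30 to -1.01). Past 2-fold, 1 gene of this list was higher and 1 lower in each line, beside the same 11.5% and 8.97% (MIA PaCa-2) and 7.71% and 7.03% (PANC-1) of all genes. The list medians were -0.30 in MIA PaCa-2 and -0.12 in PANC-1, beside -0.01 and 0.02 over all genes.

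Of 18 genes of receptor restraint tested over both lines, CBLB was called higher and HSP90AA1 lower, beside 2.26% and 2.45% of all genes. Within each line 17 were tested, 1 of them more than 2-fold higher and 0 lower, beside 11.5% and 8.97% of all genes in MIA PaCa-2 and 7.71% and 7.03% in PANC-1, with medians of 0.18 (MIA PaCa-2) and -0.08 (PANC-1). CBLB, a ubiquitin ligase for activated receptors, had 2 and 62 counts in MIA PaCa-2, a scaled count ratio of 27.9 whose log2 interval ran from 2.89 to 7.88, and 237 and 1044 counts in PANC-1 (adjusted p = 0.0435 from edgeR). HSP90AA1, a chaperone that stabilises ERBB2, had log2 fold changes of -0.67 and -0.89 (adjusted p = 0.0361 from edgeR). It stands in this list although it does not restrain the receptor. The list also holds its co-chaperone CDC37 and the deubiquitinase USP8, so the counts and medians of the list do not measure restraint alone. RNF41, a ubiquitin ligase for ERBB3, had log2 fold changes of 0.88 (0.75 to 1.01) and 0.95 (0.83 to 1.07) and was not called (adjusted p = 0.0609 from edgeR).

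None of 20 tested genes of the adaptors and the RAS-MAPK core was called by edgeR over both lines, beside 2.26% of all genes called higher and 2.45% lower. KSR1 in MIA PaCa-2, a scaffold of RAF and MEK, was the 1 tested value past 2-fold (1.15, 0.92 to 1.40). The shares of all genes past 2-fold were 11.5% higher and 8.97% lower in MIA PaCa-2, and 7.71% and 7.03% in PANC-1. The list medians were -0.09 (MIA PaCa-2) and 0.17 (PANC-1). In the PI3K-AKT and STAT branch 1 of 19 was called, beside the same 2.26% called higher and 2.45% called lower over all genes. It was the adaptor IRS2, which rose by 2.14 (1.94 to 2.35) and 1.11 (0.96 to 1.27) on the log2 scale (adjusted p = 0.0337 from edgeR). Within MIA PaCa-2, 4 of 18 genes of this branch were more than 2-fold higher, beside 11.5% of all genes, and 1 of 17 within PANC-1, beside 7.71%, with medians of -0.15 and 0.03 and 0 lower. FOXO3, a transcription factor held back by AKT, had values of 1.42 and 0.66 and was not called (adjusted p = 0.0713 from edgeR).

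The MAPK output and feedback genes had the highest median in MIA PaCa-2 among the lists with more than 1 tested gene. In that line 13 of 26 tested genes were more than 2-fold higher and 4 lower, beside 11.5% and 8.97% of all genes, with a median log2 fold change of 0.97. Of 25 tested in PANC-1, 4 were higher and 0 lower, beside 7.71% and 7.03%, with a median of 0.17. The difference between the lines was not tested. EGR1, an immediate early transcription factor, had 701 and 7116 counts in MIA PaCa-2 and 158 and 258 in PANC-1, log2 fold changes of 3.19 (3.08 to 3.30) and 0.44 (0.15 to 0.74). Over both lines, beside 2.26% of all genes, 3 of 26 were called, all higher. They were DUSP5, a nuclear ERK phosphatase (2.53, standard error 0.33, adjusted p = 0.0123 from edgeR), VGF, a secreted neuropeptide precursor (2.23, 0.37, adjusted p = 0.0217), and the cytokine gene LIF, with 1041 and 5300 counts in MIA PaCa-2 and 2136 and 5347 in PANC-1, named because it was called. No gene of this list was called lower, beside 2.45% of all genes.

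**Figure D5:**
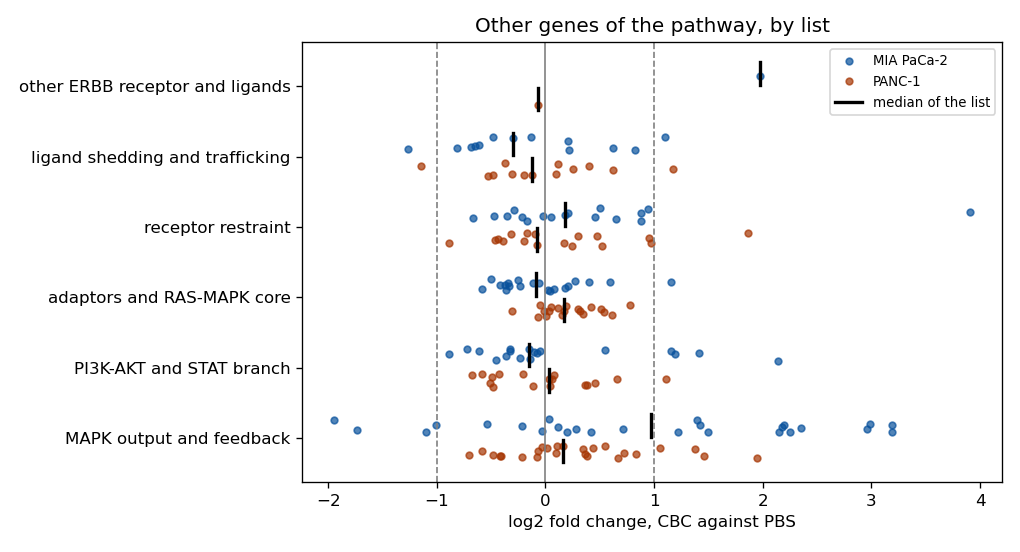
Log2 fold change of CBC against PBS for each tested gene of 6 pathway lists (blue MIA PaCa-2, brown PANC-1), with a black bar at the list median and dashed lines at a 2-fold change. The MAPK output and feedback genes have a median of 0.97 in MIA PaCa-2, while the other lists with more than 1 tested gene have medians from -0.30 to 0.18, and the point furthest to the right is CBLB in MIA PaCa-2, which rests on 2 control counts.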

How the data were processed

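Polyadenylated RNA was prepared with a directional kit and sequenced in paired ends. Per the study's methods, the authors used cutadapt 2.7 for trimming, STAR for alignment to GRCh38 and HTSeq for counting over Ensembl release 89 genes. The counting's strand setting and mode are not given in the sources used here. The authors deposited raw counts for 58233 genes and, per library, a normalized signal in CPM that matched TMM-scaled CPM from the counts within a relative difference of 6.84e-09. The counts were used here.

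Of the identifiers, 57392 matched a symbol, and positions and exon lengths came from GENCODE 44 (GRCh38). Fold changes used edgeR 4.0.16 in R 4.3.3 (TMM over 4 libraries, prior count 2) where either library compared reached 1 CPM, called past a log2 fold change of 1. CBC against PBS, and line against line, were tested over the 4 libraries with edgeR's quasi-likelihood test, with line and treatment as terms, which leaves 1 residual degree of freedom. The standard errors given were derived as the absolute log2 fold change divided by the square root of the F statistic of that test. Pairing comes from the cell lines (correlation of paired deviations 0.923). The spread left after both terms is how the CBC change differs between the lines, and edgeR moderates it with information from all genes. The p-values rest on that moderated spread between these libraries and not on repeat cultures. The fit was tested on simulated data. DESeq2 1.42.0 was an alternative. Members and lists were chosen with earlier results of these data known. All 10 members are named, with at most 3 genes per list of largest mean change at a mean of at least 10 CPM, besides called genes, and for the 3 members of largest mean change at that level the 3 genes of nearest pattern. The search for motifs used RefSeq starts (GRCh38.p14), without the 50 bases after each start.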

Additional observations from a re-analysis of the deposited data

Results flagged for a closer look

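EGFR was picked out because its change after CBC treatment differed between the lines, MIA PaCa-2 at -0.65 and PANC-1 at 0.06 on the log2 scale, a difference of -0.71. The difference was not tested, since each line had 1 library per condition, and the PANC-1 value is close to 0 (0.03 to 0.13 under the 7 alternatives run).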

How the results depend on the processing

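The number of members past 2-fold stayed within 1.5 times its value under the 8 alternatives run for each line after CBC (MIA PaCa-2 5 to 6, PANC-1 2 to 4), which changed the filter, prior count, scaling, values or threshold. Between the PBS-treated lines 7 members passed, and 4 with at least 1 CPM in both controls, since AREG, BTC and NRG1 are then not tested. Scaling by library totals in place of TMM shifted the median log2 ratio of all genes between the controls by -0.132, and no member past 2-fold changed sign under any alternative. For CBC against PBS over both lines 2 members were called, beside 771 of 16381 genes. It was 2 with library totals (737 of 16381 genes) and 2 with DESeq2 (1370 of 13740). Without a filter it was 3 (AREG added), beside 2063 of 28834 genes. With no replicate block, that is without the cell line as a term, 0 of all 16381 genes were called, so the 0 is not particular to the members. There 1 member had an unadjusted p under 0.05, beside 2.16% of all genes. For the lines over both treatments 7 members were called, beside 7652 of 16381 genes. With no replicate block it was 6 (HBEGF lost, adjusted p = 0.342 from edgeR), beside 4251 of 16381 genes.

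Leaving out a line leaves 1 library against 1 and no test, so only values can be given. Without the PANC-1 pair HBEGF stood at 2.59 and without the MIA PaCa-2 pair at 1.32 (1.94 over both lines), and AREG at 1.85 and 0.15 (1.33 over both). Between the lines HBEGF stood at 2.32 without the CBC pair and 1.05 without the PBS pair (1.61 over both treatments), AREG at -5.97 and -7.66 (-7.07), and BTC at -6.21 and -6.40 (-7.14). The pair values use a prior count of 2 and those in brackets edgeR's fit, so the 2 are not the same estimate. For BTC, on 1 and 5 PANC-1 counts, a prior count of 0.5 gave -7.17 between the controls. Depth limits AREG, BTC and TGFA in PANC-1, where each had at most 27 counts.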

Other observations

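Genes of like pattern were looked for among 10043 other genes averaging 10 CPM or more, by the Euclidean distance over 3 log2 ratios (CBC against PBS in each line, and PANC-1 against MIA PaCa-2 at baseline). For HBEGF the nearest was MXD1, a repressor of the MYC network, at a distance of 0.25, at 5.76 CPM (PBS) and 37.5 CPM (CBC) in MIA PaCa-2 against 32.8 CPM and 73.6 CPM in PANC-1. HSD17B14 (0.61) and FAM241B (0.78) followed. For ERRFI1 the 3 nearest were CTNS, the lysosomal cystine transporter (0.17), MAPKAPK3, a kinase downstream of p38 (0.18), and PRECSIT (0.19). For AREG they were GRIN2C (0.35), the chemokine gene CXCL8 (1.25), which also lies on chromosome 4, and RAB27B (1.41), at larger distances than for HBEGF and ERRFI1. CXCL8 had 72.5 CPM (PBS) and 285 CPM (CBC) in MIA PaCa-2 against 1.54 CPM and 3.92 CPM in PANC-1. In PANC-1, GRIN2C had 4 counts in each library and AREG 20 and 27, so their distance rests in part on values near the limit of counting. These distances rest on 4 libraries and are a description.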
